A study of Mus musculus with 4 samples.

Results

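Microglia with low Arg1 and Nos2 were examined in single-cell RNA sequencing of CD45+ cells (leukocytes, microglia included) sorted from the spinal cord of C57BL/6 mice. The mice had experimental autoimmune encephalomyelitis (EAE), in which T cells attack myelin. The members were chosen per cell from raw UMI counts (unique molecular identifiers, 1 per captured transcript). A member had at least 5 UMIs in the sum of Sparc, P2ry12, Tmem119 and Crybb1, no Cd3e UMI, less than 5% of its UMIs from S100a8 and S100a9, and fewer than 10 UMIs each of Arg1 plus Nos2 and of Mki67 plus Top2a. The rule selected 2164 of the 28598 cells that passed quality filters, or 7.57%. Of these, 461 and 826 came from the Reg1-MO libraries 1 and 2, and 260 and 617 from the control libraries 1 and 2. All groups had EAE. Reg1-MO animals received Reg1-MOs and control animals Ctrl MO, in each case intracranially on day 9, with collection on day 16. Neither abbreviation is explained in the labels. MO was taken to mean morpholino, an antisense oligomer, and Reg1 to mean Regnase-1, which Zc3h12a encodes, while the targeted site is unknown here. The labels do not say how many animals stood behind a library or whether the 2 libraries of a group came from separate animals, so p-values measure only the spread between these libraries.

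Microglia are the resident macrophages of the central nervous system. In their resting state they carry sensors such as the purinergic receptor P2ry12 and the fractalkine receptor Cx3cr1, and during EAE they are joined by macrophages that arise from blood monocytes. Arg1 (arginase 1) and Nos2 (inducible nitric oxide synthase) both use arginine and mark activated phagocytes. The members are the microglial cells with few raw UMIs of both together, a cut that was not scaled to depth. Regnase-1 is an RNase that degrades transcripts of inflammatory cytokines.

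The members held 10294790 and 14599818 UMIs in all in the Reg1-MO libraries, against 5426179 and 11669326 in the control libraries. Their median depth was 20080 and 14621 UMIs per cell in the Reg1-MO libraries and 18829 and 15489 in the control libraries. At most 1 member barcode was shared by any pair of libraries. Library Reg1-MO 2 stood apart from the rest in one respect. Of its members, 325 (39.3%, 95% Wilson interval 36.1% to 42.7%, counting error only) held no UMI of Xist, the RNA of the inactive X chromosome, against 3.69% in Reg1-MO 1, 5.0% in control 1 and 1.13% in control 2. UMIs of Y-linked genes numbered 3 and 2 in the Reg1-MO members and 0 and 2 in the control members. With cells that held Xist alone, 3 genes were called higher (0.0243%) and 0 lower, and the medians of the heat shock and glucocorticoid lists described below were 1.11 and -0.83.

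The 4 genes that chose the members describe them without a test. The median marker sum was 46 and 49 UMIs per cell in the Reg1-MO libraries, against 32 and 24 in the control libraries. Sparc, a secreted matrix glycoprotein, supplied the most, with medians of 24 and 26 UMIs in Reg1-MO members and 14 and 10 in control members. P2ry12 had medians of 8 and 9 UMIs in Reg1-MO members, against 5 and 4 in control members, and Tmem119, a microglial membrane protein, had the same medians. Crybb1, a crystallin gene used as a marker of young microglia, had medians of 3 and 2 UMIs in Reg1-MO members and 3 and 3 in control members. Cells near the marker threshold, with a sum of 5 to 7 UMIs, made up 10.2% and 4.0% of the Reg1-MO members and 17.7% and 8.27% of the control members. Members with no UMI of Arg1 or Nos2 at all made up 72.2% and 93.3% in the Reg1-MO libraries and 73.1% and 88.2% in the control libraries.

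The microglial label was checked against genes outside the rule, in CPM (UMIs of a gene per 1e+06 UMIs of the summed members, without further scaling). Cx3cr1 reached 752 and 929 CPM in Reg1-MO members and 668 and 625 CPM in control members. Other phagocytes were defined as cells with no UMI of the 4 markers and at least 5 UMIs in the sum of Lyz2, Csf1r and Cd68. The members' cuts on Cd3e, on S100a8 and S100a9, on Arg1 plus Nos2 and on Mki67 plus Top2a applied to them too. The cut on Lyz2, Csf1r and Cd68 was not scaled to depth. Lyz2 had 11102 to 23336 CPM in this class but also 1798 to 4070 CPM in Cd3e-positive cells. Cells that are not phagocytes could thus pass, and their part was not tested. Other phagocytes held 65.7 and 67.9 CPM of Cx3cr1 in Reg1-MO libraries and 43.2 and 43.5 CPM in control libraries. Sall1, a transcription factor of microglial identity, lay between 59.0 and 79.0 CPM in the members of the 4 libraries, and Ccr2, a receptor of blood monocytes, between 29.2 and 55.5 CPM. In other phagocytes Ccr2 had 482 and 669 CPM in Reg1-MO libraries and 520 and 338 CPM in control libraries. Ms4a7, used to mark monocyte-derived macrophages, did not separate the populations. It had 76.3 and 23.6 CPM in Reg1-MO members and 92.0 and 44.8 CPM in control members. In other phagocytes it had 72.6 and 41.4 CPM in Reg1-MO libraries and 47.7 and 109 CPM in control libraries. Cells at the marker threshold were less clearly microglial. Members with a sum of exactly 5 UMIs held 227 to 336 CPM of Cx3cr1 and 226 to 587 CPM of Ccr2, and cells just outside, with a sum of 4, held 227 to 346 CPM of Cx3cr1 and 175 to 260.0 CPM of Ccr2.

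The members took a larger average share of the cells in the Reg1-MO libraries, but the groups overlapped. They made up 5.29% and 16% of the cells in the Reg1-MO libraries and 3.22% and 9.30% in the control libraries. The means were 10.6% ± 7.56 and 6.26% ± 4.30 (SD, n = 2 each), a difference of 4.37 percentage points (exact two-sided permutation test, p = 0.667; the smallest p that 2 against 2 libraries allow is 0.333). The second library of each group held the larger share, and the sign of the difference rested on Reg1-MO 2, since without that library it was -0.97 points. In sorted cells, a larger share of members and a smaller number of other leukocytes cannot be told apart. Cells with at least 5% of their UMIs from S100a8 and S100a9, which neutrophils express strongly, made up 5.38% and 19.9% in the Reg1-MO libraries and 25.3% and 37.1% in the control libraries. Microglia with high Arg1 and Nos2 (10 or more UMIs, other cuts equal) went the opposite way between the libraries of a group. They made up 7.87% and 1.90% in the Reg1-MO libraries and 4.06% and 1.42% in the control libraries. Their median depth was 56874.5 and 40600.5 UMIs per cell in the Reg1-MO libraries and 58545.5 and 46614.5 in the control libraries. A cut on raw UMIs does not separate depth from the level of these transcripts. With thresholds per 10000 UMIs, members made up 8.23% and 18.0% in the Reg1-MO libraries and 4.11% and 10.0% in the control libraries.

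**Figure D1:**
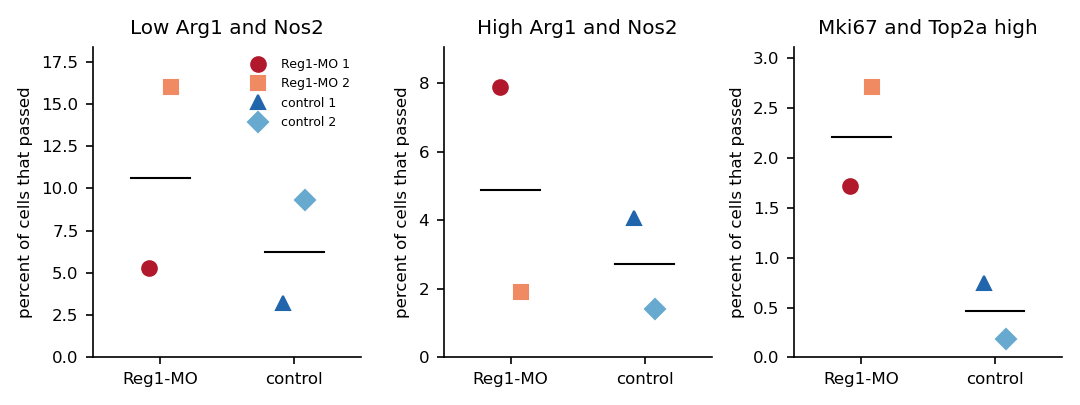
Share of all cells that passed the filters (vertical axis, percent) taken by microglia with low Arg1 and Nos2, microglia with high Arg1 and Nos2 and cycling microglia in the 2 Reg1-MO and 2 control libraries; each point is 1 library and the line is the group mean. The low Arg1 and Nos2 shares of 5.29% and 16% (Reg1-MO) overlap those of 3.22% and 9.30% (control), while both Reg1-MO libraries lie above both control libraries for cycling microglia (1.72% and 2.71% against 0.742% and 0.181%).

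Transcripts were compared between Reg1-MO and control members by edgeR's quasi-likelihood test on UMIs summed per library, to ask how the treatment altered these cells. A single gene outside the rule passed a Benjamini-Hochberg adjusted p of 0.05. It was higher in Reg1-MO, 1 of 12543 genes (0.00797%), and 0 genes (0%) were lower. An unadjusted p under 0.05 was reached by 1655 genes, or 13.2%, and DESeq2 called 82 higher and 90 lower. In both Reg1-MO libraries, 2928 genes (23.3%) were above both control libraries and 3047 (24.3%) were below both. Levels and fold changes of single genes below are in CPM scaled by TMM factors, and the median log2 fold change over all genes was 0.005, so a list is read against a centre near 0. In these bulk sums, fewer cells that express a gene and less RNA per cell cannot be told apart.

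A single member in each Reg1-MO library was rich in myelin RNA. These 2 cells carried 1834 and 2073 UMIs of the 12 genes on an oligodendrocyte and myelin list, where the next member carried 13 and 14, and the highest control members carried 10 and 14. Their marker sums of 19 and 15 came almost wholly from Sparc, at 19 and 14 UMIs. Without these 2 cells no gene passed edgeR (0 of 12439). The same cells held 811 of the 814 UMIs of Apod, an apolipoprotein, in Reg1-MO 1 and 174 of the 185 in Reg1-MO 2. Every list median given below was computed with them, and without them the medians of the heat shock and glucocorticoid lists were 1.10 and -0.83.

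All 12 tested genes of the heat shock list exceeded both control libraries in each Reg1-MO library (background 23.3%). These genes encode chaperones that refold or hold damaged proteins. Their median log2 fold change was 1.10, against 0.005 over all genes, and 11 of them had an unadjusted p under 0.05. None passed edgeR's adjusted p over all genes, while DESeq2 called 6 of them higher. Leaving out 1 library at a time, the list's median lay between 0.89, without Reg1-MO 2, and 1.33, without Reg1-MO 1.

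Hsph1 (ENSMUSG00000029657), a large chaperone of the Hsp110 class that releases nucleotide from Hsp70, had 34.4 and 63.5 CPM in Reg1-MO members and 13.1 and 8.97 CPM in control members. Its log2 fold change was 2.18 ± 0.36 (edgeR adjusted p = 0.207). Hspa1a and Hspa1b, the stress-inducible Hsp70 genes, had the steepest changes among the list's genes above 20 CPM. Hspa1a had 59.8 and 243 CPM in Reg1-MO members, against 15.7 and 20.1 CPM in control members. Hspa1b had 30.1 and 147 CPM in Reg1-MO members, against 7.38 and 8.37 CPM in control members. The log2 fold changes were 3.07 ± 0.66 for Hspa1a and 3.48 ± 0.76 for Hspa1b (both adjusted p = 0.252). The genes are close paralogs, and the split of reads between them is uncertain. Without Reg1-MO 2 the log2 fold changes were 1.73 for Hspa1a and 1.93 for Hspa1b, so their size rested in part on that library.

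The Hsp90 genes and the Hsp40 co-chaperones had smaller log2 fold changes. Hsp90aa1, the inducible cytosolic Hsp90, had 282 and 381 CPM in Reg1-MO members and 160.2 and 151 CPM in control members (log2 fold change 1.09 ± 0.23; adjusted p = 0.245). Dnaja1, an Hsp40 that delivers clients to Hsp70, had 223 and 285 CPM in Reg1-MO members, against 129.8 and 106 CPM in control members (1.11 ± 0.22; adjusted p = 0.238). Dnajb1, another Hsp40, had 54.8 and 86.1 CPM in Reg1-MO members and 32.5 and 34.3 CPM in control members. Hspa8, the constitutive Hsp70, had 2148 and 1930.2 CPM in Reg1-MO members, against 1504 and 1226 CPM in control members (0.58 ± 0.25; adjusted p = 0.391). Hspa5, the Hsp70 of the endoplasmic reticulum, had 1158 and 1699.6 CPM in Reg1-MO members and 737 and 322 CPM in control members. The mitochondrial chaperonins Hspd1 and Hspe1 had log2 fold changes of 0.91 and 0.53. A pair of co-chaperones outside the list, Stip1 and Ppid, which bind Hsp90, were among the 12 higher genes with the smallest p: Stip1 had 49.4 and 62.2 CPM in Reg1-MO members and 29.9 and 24.9 CPM in control members (1.03 ± 0.20; adjusted p = 0.225).

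**Figure D2:**
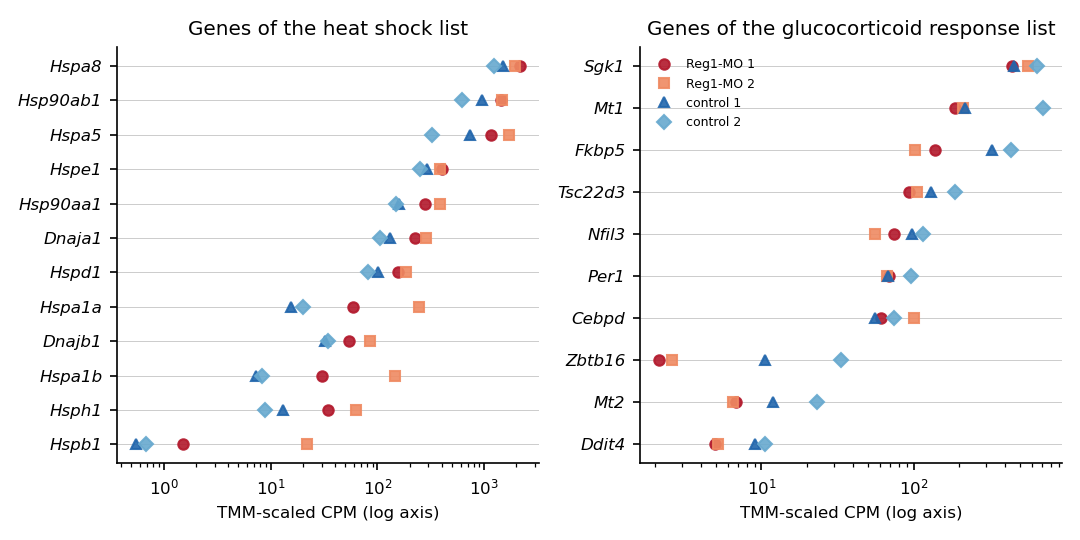
Level of each tested gene of the heat shock list (left) and the glucocorticoid response list (right) in the summed members of each library, in TMM-scaled CPM on a log axis; each symbol is 1 library. For the 12 heat shock genes both Reg1-MO symbols lie to the right of both control symbols, and for 7 of the 10 glucocorticoid genes, such as Fkbp5 (138 and 103 CPM against 329 and 437 CPM), they lie to the left.

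Heat shock genes are known targets of the factor Hsf1, which binds inverted repeats of the unit GAA in promoters. Promoter sequence is shown for 4 genes of the list, since all tested genes of the list were higher in both Reg1-MO libraries. It was taken from RefSeq promoter windows on GRCm38.p6, which held 9 of the 12 list genes in 14 windows, and Hspa8, Hsp90aa1 and Hsp90ab1 had no entry. The last 150 bases before the start of transcription are printed 5′ to 3′ on the strand of the gene, with matches to GAANNTTC or TTCNNGAA in capitals. For Hsph1 the second of its windows is shown. Both motifs read the same on the other strand, and they overlap where units alternate.
Hspa1a, chr17:34972157-34972306, minus strand: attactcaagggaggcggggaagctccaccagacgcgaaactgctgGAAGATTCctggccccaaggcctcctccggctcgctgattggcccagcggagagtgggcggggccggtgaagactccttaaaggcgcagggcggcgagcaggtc
Hspb1, chr5:135887769-135887918, plus strand: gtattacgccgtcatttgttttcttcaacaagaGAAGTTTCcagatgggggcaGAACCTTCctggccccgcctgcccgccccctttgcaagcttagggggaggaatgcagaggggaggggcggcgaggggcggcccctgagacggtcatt
Hsph1, chr5:149636337-149636486, minus strand: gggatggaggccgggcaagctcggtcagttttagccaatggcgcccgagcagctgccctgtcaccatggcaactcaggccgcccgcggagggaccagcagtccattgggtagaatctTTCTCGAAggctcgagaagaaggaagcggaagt
Hspe1, chr1:55087998-55088147, plus strand: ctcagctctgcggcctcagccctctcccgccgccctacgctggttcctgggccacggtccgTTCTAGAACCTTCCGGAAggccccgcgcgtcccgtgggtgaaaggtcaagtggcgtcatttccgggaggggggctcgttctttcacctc
In the 250 upstream bases, 7 of the 9 genes (8 of the 14 windows) held at least one of these motifs, against 12.8% of 32851 windows of the same length. Hspe1 and its head-to-head neighbour Hspd1 held 3 overlapping matches in a row, and share that stretch of DNA. A run of at least 3 alternating units, which is shorter than theirs, was found in 0.466% of windows. The match began 104 bases before the start in Hspa1a and 33 bases before it in the window shown for Hsph1. A match is a description of the sequence and not evidence of binding.

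The heat shock list as a whole was spread over the members, but the genes with the steepest changes were found in a part of them. Hspa8 had UMIs in 460 and 825 of the 461 and 826 Reg1-MO members. Hspa1a had UMIs in 129 and 359 of them, Hspa1b in 89 and 306, and Hspb1 in 14 and 53. The list took a median of 0.529% and 0.618% of a member's UMIs in the Reg1-MO libraries, against 0.364% and 0.266% in the control libraries. Members above 1% made up 2.60% and 17.7% in the Reg1-MO libraries and 0% in both control libraries. After thinning each cell to 5000 UMIs, which left out 16, 31, 20 and 17 shallower members of Reg1-MO 1, Reg1-MO 2, control 1 and control 2, Hspa1a was detected in 14.4% and 31.2% of Reg1-MO members and 4.17% and 5.50% of control members. Before thinning the shares were 28.0% and 43.5% in Reg1-MO members and 8.08% and 11% in control members. In Cd3e-positive cells thinned the same way, Hspa1a was detected in 4.40% and 6.40% of Reg1-MO cells and 1.60% and 5.20% of control cells, at median depths before thinning of 7902.5 to 9529 UMIs. For Hspa1a the members were thus at about the share of that other cell type in control 2. They were above it in control 1 and in both Reg1-MO libraries. Hsph1 and Dnaja1 went the other way in all 4 libraries. Hsph1, thinned, was detected in 12.4% and 22.1% of Reg1-MO members and 6.25% and 4.17% of control members. Cd3e-positive cells had 26.4% and 32.2% in Reg1-MO libraries and 16.8% and 16.6% in control libraries. Dnaja1 had 58% and 66.3% in Reg1-MO members and 41.7% and 36.3% in control members. Its shares in Cd3e-positive cells were 79.6% and 83%, and 72% and 70.4%, in the same order.

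Other cells of the same libraries also held more heat shock RNA after Reg1-MO. These comparisons share their libraries with the members and are given side by side. All 12 tested list genes in microglia with high Arg1 and Nos2 were above control in both Reg1-MO libraries (background 23.7%, median log2 fold change 0.89). The same was true of 11 of 11 genes in cycling microglia (background 23%, median 0.84), 11 of 12 in Cd3e-positive cells (19.6%, 0.73), 11 of 11 in cells with high S100a8 and S100a9 (21.6%, 0.63) and 10 of 11 in other phagocytes (30.1%, 0.70). In other phagocytes, where edgeR called 1.34% of all genes higher and 1.98% lower, it called 4 of them, Hsp90aa1, Hsp90ab1, Hsph1 and Dnaja1. In the test of the difference from other phagocytes the median of the genes' differences was 0.50, and no list gene was called.  Among 18 immediate early genes, which respond to stimuli within minutes, 1 was higher in both Reg1-MO libraries of the members and 3 were lower. These counts lay below the shares over all genes of 23.3% and 24.3%. The immediate early list took a median of 0.450% and 0.777% of a member's UMIs in Reg1-MO 1 and 2. In control 1 and 2 it took 0.558% and 0.854%. The part of handling in the heat shock difference was not tested.

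**Figure D3:**
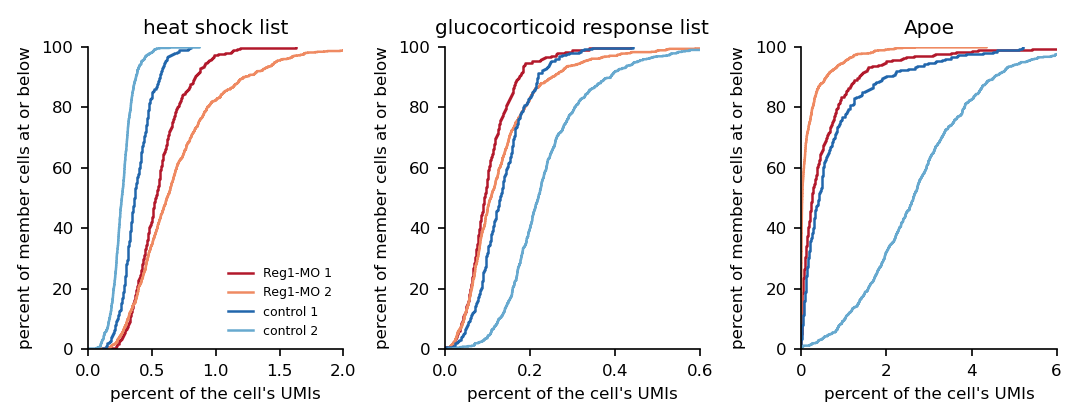
Cumulative share of member cells (vertical axis, percent) by the percent of the cell's UMIs (horizontal axis) from the heat shock list, the glucocorticoid response list and Apoe; each line is 1 library. Both Reg1-MO lines lie to the right of both control lines for heat shock, with medians of 0.529% and 0.618% against 0.364% and 0.266%, and for Apoe the line of control 2 (median 2.63%) stands apart from the other three.

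Genes of the glucocorticoid response were lower in the Reg1-MO members. Glucocorticoids, the steroid hormones of the stress response, induce this list through their nuclear receptor. Of its 10 genes, 7 were below control in both Reg1-MO libraries (background 24.3%), 9 had a negative log2 fold change, and the median was -0.84. An unadjusted p under 0.05 was reached by 6, none passed edgeR's adjusted p, and DESeq2 called 2 lower. Without 1 library at a time the median lay between -0.98, without control 1, and -0.48, without control 2.

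Fkbp5 (ENSMUSG00000024222), a co-chaperone that restrains the glucocorticoid receptor and is induced by it, had 138 and 103 CPM in Reg1-MO members and 329 and 437 CPM in control members. Its log2 fold change was -1.67 ± 0.26 (edgeR adjusted p = 0.194; DESeq2 adjusted p = 1.28e-06). In cells thinned to 5000 UMIs, Fkbp5 was detected in 43.8% and 39.6% of Reg1-MO members and 77.5% and 82.2% of control members, and before thinning in 77.9% and 67.6% of Reg1-MO members and 95% and 97.4% of control members. In Cd3e-positive cells, thinned, the shares were 29.0% and 24.0% in Reg1-MO libraries and 33.2% and 45.0% in control libraries. Zbtb16, a zinc finger repressor induced by steroids, had 2.12 and 2.56 CPM in Reg1-MO members and 10.5 and 33.6 CPM in control members (-3.25 ± 0.58; edgeR adjusted p = 0.215; DESeq2 adjusted p = 1.91e-06). Tsc22d3, which encodes the anti-inflammatory protein GILZ, had 93.8 and 106 CPM in Reg1-MO members and 130.2 and 187 CPM in control members. The metallothionein Mt1 had 188 and 212 CPM in Reg1-MO members, against 216 and 709 CPM in control members, and most of its difference came from control 2, since the log2 fold change was -1.21 with that library and -0.11 without it. Nfil3, a basic leucine zipper repressor, had 74.6 and 55.9 CPM in Reg1-MO members and 97.9 and 116 CPM in control members. The metal-binding Mt2 and the stress gene Ddit4 were also lower in both Reg1-MO libraries, at under 25 CPM, and the other 3 genes overlapped.

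Lower glucocorticoid genes were likewise found in the other cells of these libraries, whose medians were -0.45 in microglia with high Arg1 and Nos2, -0.59 in cycling microglia, -0.50 in Cd3e-positive cells, -0.30 in cells with high S100a8 and S100a9 and -0.84 in other phagocytes. In the last, 2 of the 10 were called lower. The difference between the members and other phagocytes had a median of -0.08, with no gene called.

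Of the 25 homeostatic microglial genes outside the rule, 15 were higher in both Reg1-MO libraries (background 23.3%), 1 was lower in both, and the median log2 fold change was 0.37. None passed edgeR, 4 had an unadjusted p under 0.05, and DESeq2 called 1 higher. The list was not independent of the rule, since its genes mark the same cells as the 4 markers. Siglech, a sialic acid receptor of microglia and plasmacytoid dendritic cells, had 223 and 310.2 CPM in Reg1-MO members and 143 and 125 CPM in control members (1.00 ± 0.23; edgeR adjusted p = 0.252; DESeq2 adjusted p = 0.0181). Olfml3, a secreted matrix protein, had 858 and 1211 CPM in Reg1-MO members and 655 and 332 CPM in control members (1.07 ± 0.38; adjusted p = 0.340). Cx3cr1 had 783 and 891 CPM in Reg1-MO members and 668 and 629 CPM in control members. The purinergic receptor P2ry13, the fructose transporter Slc2a5, the adhesion ligand gene Selplg and the protease inhibitor Cst3 had log2 fold changes of 0.50, 0.93, 0.58 and 0.84. Fcrls, an Fc receptor-like gene used to mark microglia, was high in 1 library only, with 91.9 and 391 CPM in Reg1-MO members and 99.4 and 52.8 CPM in control members.

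Siglech was also higher in Cd3e-positive cells, which should hold little of it. It reached 35.1 and 30.0 CPM, unscaled, in those of the Reg1-MO libraries and 10.8 and 8.95 CPM in those of the control libraries. The part of free RNA in the members' values was not tested. Among the 14 transcription factors of the microglial list, 5 were higher and 2 lower in both Reg1-MO libraries (background 23.3% and 24.3%), with a median of 0.17. Sall1 had 72.2 and 75.8 CPM in Reg1-MO members and 68.8 and 59.4 CPM in control members (0.21 ± 0.16; adjusted p = 0.603), and Bhlhe41, a repressor of the circadian and lineage programme, had 143 and 206 CPM in Reg1-MO members and 116 and 102 CPM in control members. Mef2a and Cebpa, which encode factors of the myeloid lineage, were the 2 below control.

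Lipid-handling genes were mostly lower in Reg1-MO members. In the list for lipid efflux and uptake, 12 of 14 genes had a negative log2 fold change, 7 were below control in both Reg1-MO libraries (background 24.3%) and 7 had an unadjusted p under 0.05. The median was -0.52 and no gene passed edgeR, while DESeq2 called 1 lower. Abca1, the pump that loads cholesterol onto apolipoproteins, had 186 and 190.2 CPM in Reg1-MO members and 289.9 and 532 CPM in control members (-1.13 ± 0.32; edgeR adjusted p = 0.289; DESeq2 adjusted p = 0.0255). Its partner Abcg1 had 58.7 and 43.4 CPM in Reg1-MO members, against 75.8 and 128 CPM in control members. Soat1, which esterifies cholesterol, had 109 and 80.2 CPM in Reg1-MO members and 135 and 191 CPM in control members.

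Apoe, the main apolipoprotein of the brain, showed a wide spread between the libraries of a group. It had 5984 and 2191 CPM in Reg1-MO members and 8369.8 and 28463 CPM in control members, a log2 fold change of -2.17 ± 0.74 (adjusted p = 0.335), and -1.03 without control 2. Apoe took a median of 0.247% and 0.0229% of a Reg1-MO member's UMIs and 0.414% and 2.63% of a control member's. Cells with at least 1% of their UMIs from Apoe made up 16.5% and 5.08% of Reg1-MO members and 23.1% and 90.6% of control members. Control 2 stood above the other 3 libraries. Genes of the same genomic cluster had the same order of libraries. Apoc1 had 19.6 and 7.82 CPM in Reg1-MO members and 51.4 and 154 CPM in control members, and Apoc2 had 169 and 54.3 CPM in Reg1-MO members and 279.6 and 461 CPM in control members. Of the 23 tested genes on the disease-associated microglia list, which includes Apoe, 3 were higher and 4 lower in both Reg1-MO libraries. Both counts lay below the background of 23.3% and 24.3%. Itgax (CD11c, an integrin of dendritic cells and activated microglia) had 38.0 and 27.9 CPM in Reg1-MO members, against 14.2 and 18.7 CPM in control members (0.98 ± 0.24; adjusted p = 0.262), and the lower ones were Apoe, Spp1, Cd63 and Csf1.

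Chemokine genes were higher more often than lower. Of 17 tested, 8 were higher and 2 lower in both Reg1-MO libraries (background 23.3% and 24.3%), the median log2 fold change was 0.15, and none passed edgeR, while DESeq2 called 3 higher. Ccl12, a monocyte attractant, had 787 and 1476 CPM in Reg1-MO members and 606 and 264 CPM in control members (1.38 ± 0.49; edgeR adjusted p = 0.338; DESeq2 adjusted p = 0.0313). Ccl2, which acts on the same receptor, had 1046 and 1139 CPM in Reg1-MO members and 877 and 206 CPM in control members (1.01 ± 0.63; adjusted p = 0.510). Control 2 held the low value for both. Cxcl9 and Cxcl10 attract activated T cells and are induced by interferon. Cxcl9 had 246 and 166 CPM in Reg1-MO members, against 113 and 51.1 CPM in control members (1.33 ± 0.41; edgeR adjusted p = 0.313; DESeq2 adjusted p = 0.0252). Cxcl10 had 693 and 808 CPM in Reg1-MO members, against 633 and 171 CPM in control members. Ccl6, a myeloid chemokine, ran the opposite way, with 171 and 142 CPM in Reg1-MO members and 268 and 228 CPM in control members (-0.66 ± 0.21; adjusted p = 0.315).

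Of the 19 tested cytokines and growth factors, 5 were higher and 2 lower in both Reg1-MO libraries, a share near the background of 23.3% for the higher ones. Tnf had 332 and 588 CPM in Reg1-MO members and 283 and 107 CPM in control members (1.24 ± 0.51; adjusted p = 0.379). Tnfsf13b, which encodes the B cell survival factor BAFF, had 69.0 and 69.8 CPM in Reg1-MO members and 50.7 and 28.6 CPM in control members. Il12b, the shared subunit of interleukins 12 and 23, had 513 and 958 UMIs in Reg1-MO members and 138 and 2 UMIs in control members, and 74 of the 138 in control 1 came from 1 cell. Among the 20 genes of NF-kB feedback, 8 were higher and 0 lower in both Reg1-MO libraries (background 23.3% and 24.3%), with a median of 0.22. Nfkbia, the inhibitor of NF-kB, had 749.9 and 1169 CPM in Reg1-MO members and 609 and 619.9 CPM in control members (0.64 ± 0.28; adjusted p = 0.395). Of 14 complement genes 7 were higher and 2 lower (background 23.3% and 24.3%). C1qa, a subunit of the initiator of the classical pathway, had 8127 and 7557 CPM in Reg1-MO members and 6778 and 6446 CPM in control members (0.25 ± 0.28), while C3, the central complement protein, had 72.5 and 47.4 CPM in Reg1-MO members and 75.6 and 138 CPM in control members (-0.84 ± 0.34).

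Transcripts of Regnase-1 itself overlapped between the groups. Zc3h12a (ENSMUSG00000042677) had 71.7 and 79.6 CPM in Reg1-MO members and 69.5 and 129 CPM in control members (-0.39 ± 0.30; adjusted p = 0.593), and the sign changed without control 2, to 0.13. A morpholino can act on translation or splicing and need not lower the count of a transcript, and 3′ counts do not show splicing, so these values do not check the treatment. Of the 13 genes of the Regnase family and related RNA decay factors, 0 were higher and 5 lower in both Reg1-MO libraries (background 24.3%), with a median of -0.14. Rc3h2, the paralog of Roquin-1, had 27.4 and 28.5 CPM in Reg1-MO members and 40.9 and 38.2 CPM in control members (-0.50 ± 0.15; adjusted p = 0.313). Zc3h12c, a Regnase family member, had 31.0 and 40.3 CPM in Reg1-MO members and 78.4 and 43.3 CPM in control members. The other 3 were Rc3h1 (Roquin-1) and the AU-rich element binding Zfp36l1 and Zfp36l2. Of 19 tested transcripts reported elsewhere as Regnase-1 targets, 4 were higher and 2 lower in both Reg1-MO libraries, below the background on both sides, and none passed edgeR.

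**Figure D4:**
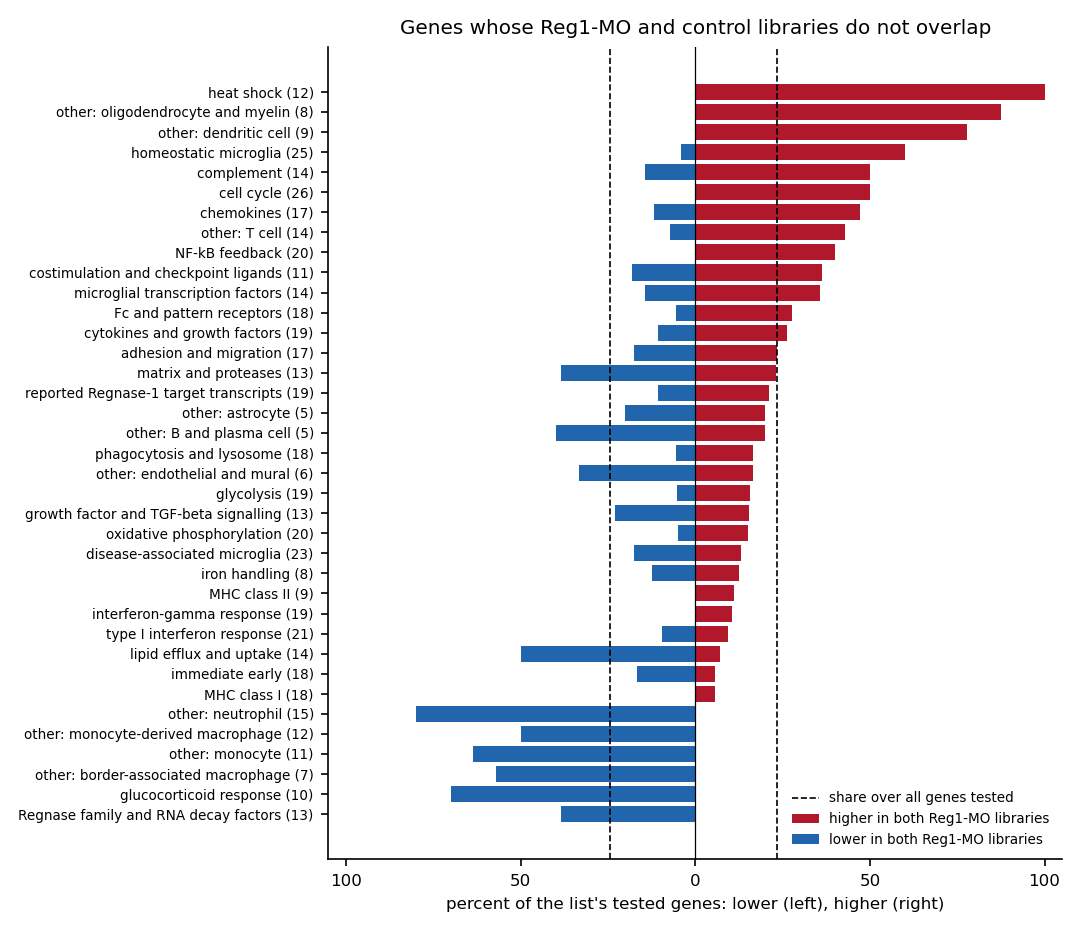
Percent of each list's tested genes (number in brackets) for which both Reg1-MO libraries lay above both control libraries (right, red) or below both (left, blue) in the members; dashed lines give the shares over all genes, 23.3% higher and 24.3% lower. The heat shock list reaches 100% on the right (12 of 12 genes), and the neutrophil, glucocorticoid response and monocyte lists reach furthest to the left.

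Beside these lists, the 12 lower genes with at least 20 CPM, no overlap and the smallest unadjusted p were examined. Antxr2, the receptor for anthrax toxin and a collagen-binding protein, had the smallest p, with 46.0 and 42.2 CPM in Reg1-MO members and 117 and 115 CPM in control members (-1.40 ± 0.16; edgeR adjusted p = 0.176; DESeq2 adjusted p = 2.28e-05). Lcn2, a neutrophil granule protein also made by stressed glia, had 35.3 and 47.1 CPM in Reg1-MO members and 151 and 248 CPM in control members (-2.27 ± 0.30; edgeR adjusted p = 0.176; DESeq2 adjusted p = 2.28e-09). Osbpl11, an oxysterol-binding protein, had 61.3 and 62.8 CPM in Reg1-MO members, against 133 and 144 CPM in control members (-1.16 ± 0.17; adjusted p = 0.178). Trem1, Anxa1, Ifitm6, Wfdc21, S100a4, Mmp8, Mmp9, Slc2a9 and Fkbp5 completed the 12, with log2 fold changes from -2.73 (Mmp8) to -1.10 (S100a4). None passed edgeR.

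Among the higher genes chosen the same way, 11 did not pass edgeR. Arsb, a lysosomal sulfatase, had 142 and 166 CPM in Reg1-MO members and 84.1 and 64.3 CPM in control members (1.06 ± 0.21; adjusted p = 0.237). Srm, the spermidine synthase, had 44.0 and 53.3 CPM in Reg1-MO members, against 24.7 and 17.0 CPM in control members (1.24 ± 0.23; adjusted p = 0.224), Ak1, an adenylate kinase, had 29.2 and 32.6 CPM in Reg1-MO members and 15.9 and 11.4 CPM in control members, and Batf3, a transcription factor of dendritic cells, had 38.3 and 36.6 CPM in Reg1-MO members and 22.5 and 19.2 CPM in control members (0.85 ± 0.17). The others were the chaperones and co-chaperones Hsph1, Ppid, Stip1, Dnaja1 and Hsp90aa1, and Mag and Apod. Mag, a myelin-associated glycoprotein, had a log2 fold change of 0.23 without the 2 cells rich in myelin RNA.

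Markers of other leukocytes differed between the groups as well, and their part in them was not tested. Of 15 tested neutrophil genes outside the rule, 12 were lower in both Reg1-MO libraries (background 24.3%), with a median of -1.26. Their summed level was 586 and 834 CPM in Reg1-MO members and 1393 and 2103 CPM in control members, unscaled. In cells with high S100a8 and S100a9, which should express these genes themselves, 3 of the 15 were lower (background 22.5%) and the median was 0.01. In Cd3e-positive cells 14 of 15 were lower (background 21.2%). Of 11 monocyte genes 7 were lower (background 24.3%). Vcan, a proteoglycan of classical monocytes, had 7.89 and 6.83 CPM in Reg1-MO members and 35.2 and 27.9 CPM in control members (-2.10 ± 0.21; edgeR adjusted p = 0.109; DESeq2 adjusted p = 1.24e-06), and Chil3, a chitinase-like gene of monocytes and macrophages, had 275 and 99.6 CPM in Reg1-MO members and 1060.1 and 1873 CPM in control members. Of 7 tested genes of border-associated macrophages 4 were lower (background 24.3%), and Cd163 and Cd209f were at 0 UMIs in all 4 libraries. Markers of dendritic cells ran the other way, with 7 of 9 higher (background 23.3%). They summed to 83.3 and 96.4 CPM in Reg1-MO members and 47.0 and 38.6 CPM in control members. Itgae, an integrin of T cells and dendritic cells, had 66 and 94 UMIs in Reg1-MO members and 7 and 11 UMIs in control members. T cell genes summed to 46.5 and 35.2 CPM in Reg1-MO members and 29.3 and 27.3 CPM in control members.

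Genes of cell migration and matrix breakdown showed single large differences. Cxcr4, the receptor for CXCL12, had 32.7 and 21.2 CPM in Reg1-MO members and 65.5 and 106 CPM in control members (-1.68 ± 0.31; adjusted p = 0.224). Cd44, the hyaluronan receptor, had 132 and 99.7 CPM in Reg1-MO members, against 216 and 269 CPM in control members (-1.07 ± 0.23; adjusted p = 0.252). Mmp12, the macrophage elastase, had 15 and 13 UMIs in Reg1-MO members and 29 and 167 UMIs in control members, not scaled to the libraries' unequal totals. A single cell held 5 and 9 of these UMIs in Reg1-MO 1 and 2, and 21 and 62 in control 1 and 2. Few members held any, 8 and 4 in the Reg1-MO libraries and 7 and 16 in the control libraries. The gelatinase Mmp2 had 18.4 and 22.1 CPM in Reg1-MO members and 11.2 and 7.07 CPM in control members. The cell cycle list, whose genes Mki67 and Top2a were capped by the rule, had 13 of 26 genes higher and 0 lower in both Reg1-MO libraries (background 23.3% and 24.3%), with a median of 0.66. Control 2 was the low library. The list took a median of 0.145% and 0.136% of a member's UMIs in the Reg1-MO libraries, against 0.143% and 0.0998% in the control libraries. Mcm2 and Mcm3, subunits of the replicative helicase, had log2 fold changes of 1.70 and 0.86. All 9 genes of MHC class II had a positive log2 fold change, but 1 was free of overlap; Cd74, the invariant chain, had 10826 and 4477 CPM in Reg1-MO members and 6743 and 6444 CPM in control members.

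The effect of Reg1-MO was then compared with that in microglia with high Arg1 and Nos2, by the interaction of treatment and population with the library as a block. Of 12918 genes, 6 had a more positive effect in the members (0.0464%) and 1 a more negative one (0.00774%), and 1244 had an unadjusted p under 0.05. Microglia with high Arg1 and Nos2 were also deeper than the members, and the part of depth was not tested. Values of both populations, which share their libraries, are given side by side. Fkbp5 had a log2 fold change of -1.67 ± 0.26 in the members and -1.71 ± 0.28 in microglia with high Arg1 and Nos2, Hsph1 had 2.18 ± 0.36 in the members and 1.55 ± 0.24 in the other class, and Siglech had 1.00 ± 0.23 in the members and 1.13 ± 0.18 in the other class.

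The effect of Reg1-MO was also compared with that in other phagocytes, where interferon genes differed most often among the lists. This comparison was added after the list values of both populations had been seen. Of 12990 genes tested for a difference in effect, 74 were more positive in the members (0.57%) and 176 more negative (1.35%), and 2357 had an unadjusted p under 0.05. The fit left 2 residual degrees of freedom. Of the 21 tested genes of the type I interferon response, which cells switch on against viruses, 16 were called more negative in the members, with a median difference of -1.79. Of the 19 tested genes of the interferon-gamma response, 13 were called more negative, with a median of -1.45. Leaving out 1 library at a time, 11 to 18 and 9 to 16 of them were called.

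Among the members themselves the type I genes showed no common direction, with 11 above and 10 below 0 and a median log2 fold change of 0.06. Of these genes, 2 were higher and 2 lower without overlap (background 23.3% and 24.3%). In other phagocytes all 21 were above control in both Reg1-MO libraries (background 30.1%), with a median of 1.68, although none passed edgeR's adjusted p there (18 had an unadjusted p under 0.05, against 26.8% of all genes). Isg15, a ubiquitin-like protein induced by interferon, had 117 and 141 CPM in Reg1-MO members and 115 and 34.8 CPM in control members. In other phagocytes Isg15 had 249 and 277 CPM in the Reg1-MO libraries and 87.1 and 13.4 CPM in the control libraries, and the effects differed by -1.91 ± 0.30 (adjusted p = 0.0258). In both populations control 2 was the lowest library for Isg15. For the interferon-gamma list the median was 0.35 in the members and 1.68 in other phagocytes.

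The makeup of the other phagocytes also differed between the groups, and its part in this difference was not tested. Their summed monocyte genes reached 9702 and 9912 CPM in the Reg1-MO libraries and 23116 and 23648 CPM in the control libraries, unscaled, against 1339 and 819 CPM in Reg1-MO members and 2500.3 and 3131 CPM in control members. Other lists differed in the same test. All 26 cell cycle genes had a more positive effect in the members, with a median difference of 1.69, 21 at an unadjusted p under 0.05 and 2 called (20 without control 1). All 20 genes of NF-kB feedback had a more negative one, with a median of -0.87, 15 at an unadjusted p under 0.05 and 1 called (11 without control 1). The heat shock and glucocorticoid lists had 0 genes called and 4 and 3 at an unadjusted p under 0.05. Against microglia with high Arg1 and Nos2, 0 of 21 type I and 0 of 19 interferon-gamma genes were called, with median differences of -0.34 and -0.31 and 9 of each at an unadjusted p under 0.05, so the interferon difference was not shown to be particular to the members.

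**Figure D5:**
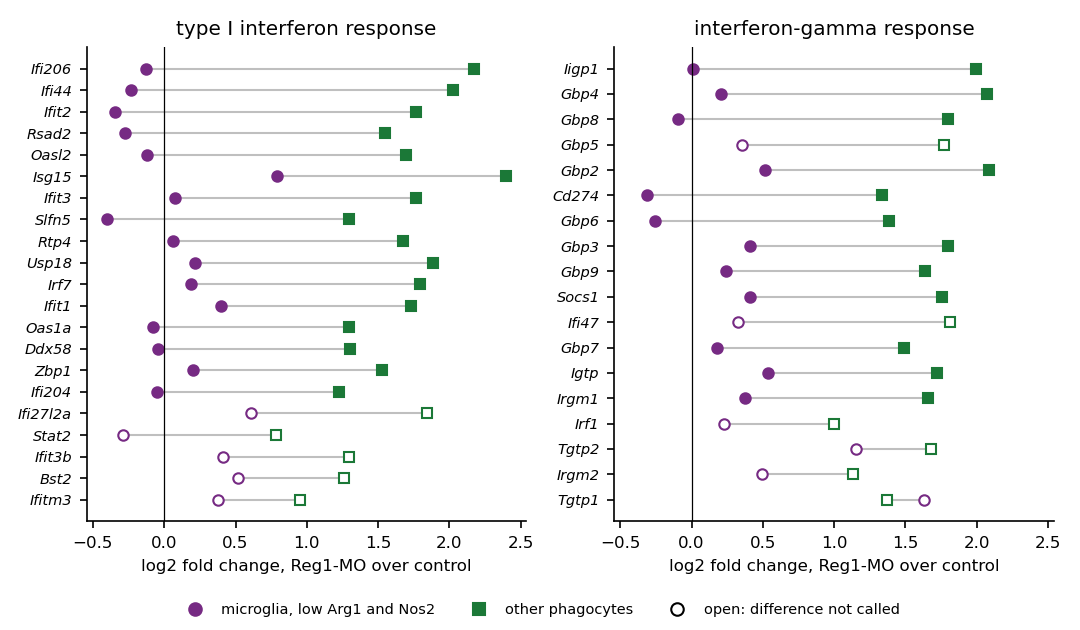
Log2 fold change, Reg1-MO over control (horizontal axis), of genes of the type I interferon list (left) and the interferon-gamma list (right) in the members (purple circles) and in other phagocytes (green squares); open symbols mark genes whose difference was not called. In the members the type I genes centre near 0 (median 0.06) and the interferon-gamma genes at 0.35, while both lists centre near 1.68 in other phagocytes. Each effect is from its own fit, while the call is from the joint fit.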

How the data were processed

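The authors deposited a matrix of raw UMI counts (genes by cell barcodes) for each library, and the file headers name Cell Ranger 5.0.1; mm10 and Seurat 4.0 are named in the submitters' processing notes. Settings for cell calling were not stated. Cells were kept from 500 UMIs and 200 genes upward, with mitochondrial UMIs of 10% or less. UMIs of members were summed per library, filtered with filterByExpr (minimum count 10), scaled by TMM and tested with edgeR 4.0.16 in R 4.3.3 (quasi-likelihood F-test, 2 against 2 libraries, Benjamini-Hochberg over all genes). Of the 11 genes of the rule, Cd3e had no UMI in the members and was not tested. The others stayed in the fit and out of the counts of calls. DESeq2 1.42.0 was the alternative test, and doublets were kept, except in an alternative that left out the cells with the highest Scrublet scores (scanpy 1.11.5), which called 1 gene higher and 0 lower. The fits were tested on simulated data. Members, lists and the comparisons described were chosen with earlier results of these data known. Named genes were up to 12 each way by smallest p or, where called, largest change, at 20 CPM or more without overlap, the called, most abundant and smallest-p members of each list, and Zc3h12a. Not all are printed, and list genes outside that rule were chosen after their values were seen (Abcg1, Ccl6, Cd63, Csf1, Cx3cr1, Cxcl9, Cxcl10, Ddit4, Dnajb1, Fcrls, Hspa1a, Hspa1b, Hspb1, Hspd1, Il12b, Isg15, Mmp2, Mmp12, Mt2, Nfil3, Olfml3, P2ry13, Rc3h1, Sall1, Soat1 and Spp1), as was Ccr2. Ms4a7 was also chosen after its values were seen. The 4 libraries are the replicates, and intervals of shares cover counting error only. Results of some genes are not reported here.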

Additional observations from a re-analysis of the deposited data

Results flagged for a closer look

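The effect of Reg1-MO differed between the members and other phagocytes in 250 genes, by the interaction test with the library as a block. The 8 given here are the 4 with the smallest p in each direction among genes of at least 20 CPM. Mir99ahg, a microRNA host gene, had a log2 fold change of 0.68 in the members and -2.34 in other phagocytes (difference 2.98; adjusted p = 0.00615). Nfia, a nuclear factor I gene, had -0.09 in the members and -2.54 in other phagocytes (difference 2.43; adjusted p = 0.00777). Ctdspl, a phosphatase gene, had 0.70 in the members and -1.20 in other phagocytes (difference 1.88; adjusted p = 0.0147), and Mzt2, a mitotic spindle gene, had 0.88 in the members and -0.95 in other phagocytes (difference 1.84; adjusted p = 0.0219). Ltf, the neutrophil granule protein lactoferrin, had -2.66 in the members and -0.40 in other phagocytes (difference -2.35; adjusted p = 0.0147). Nol4l had -0.81 in the members and 1.17 in other phagocytes (difference -2.05; adjusted p = 0.0147), Phf11d, a gene of an interferon-induced cluster, had 0.40 in the members and 2.19 in other phagocytes (difference -1.80; adjusted p = 0.0147), and Ifi206, an interferon-induced gene of a multigene family whose counts may be shared among copies, had -0.13 in the members and 2.17 in other phagocytes (difference -2.48; adjusted p = 0.0147). No group had the 4 libraries that a check for outlying samples needs.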

How the results depend on the processing

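The counts of called genes depended on the processing, and the causes were not tested. Against 1 gene higher and 0 lower, DESeq2 called 82 and 90, no filter on low counts 527 and 467, and a replicate block 42 and 49. Thresholds per 10000 UMIs, an S100a8 and S100a9 limit of 1% and leaving out the 2 cells rich in myelin RNA each gave 0 higher, and cells with Xist alone gave 3; these last settings on cells were chosen after seeing the data. Without 1 library at a time, 1 to 8 genes were higher and 0 to 5 lower. The labels do not say whether libraries with the same replicate number were handled together. The correlation of their deviations was 0.155. With 2 libraries per group it is equal in both pairs by construction, so it cannot decide this. The genes whose effect differed from microglia with high Arg1 and Nos2 numbered 7, against 3 with RLE factors, 230 with no filter and 5 to 362 without 1 library. Those differing from other phagocytes numbered 250, against 1205 with no filter and 174 to 1049 without 1 library. The difference in share ran from -0.971 to 9.72 points without 1 library. With thresholds per 10000 UMIs the log2 fold change of Apod was -0.57 and that of Ifi206 0.090, against 6.04 and -0.13. Without 1 library at a time, the log2 fold change ran from -0.56 to 0.72 for Cd74, -0.58 to 0.48 for Ifi206 and -0.77 to 0.13 for Zc3h12a.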

Other observations

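In library Reg1-MO 2, the 325 members without an Xist UMI and the 501 with one were set side by side, unscaled, as values of a single library with no test. Hspa1a had 253 CPM in the members without Xist and 254 CPM in those with it, and Fkbp5 had 104 and 109 CPM in the same order. Cd74, the invariant chain of MHC class II, had 3896 CPM without Xist and 5099.96 CPM with it. Kdm6a and Eif2s3x, X-linked genes that escape inactivation, had 52.3 and 35.8 CPM in members without Xist and 74.8 and 54.1 CPM in members with it. Pbdc1, Kdm5c and Ddx3x, also X-linked, had 30.4, 56.3 and 119 CPM without Xist and 41.9, 63.7 and 134 CPM with it. For Kdm5c and Ddx3x the intervals for counting error overlapped. Over all cells that passed the filters, 10.4% and 60.6% in the Reg1-MO libraries held no Xist UMI, against 19.9% and 21.6% in the control libraries.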
